A study of Homo sapiens with 12 samples.

Results

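The genes described here encode the proteasome: the subunits of its core and regulatory particles, the activators and the inhibitor that bind the core, and the factors that assemble it. Members were taken by name alone, as every symbol of PSMA, PSMB, PSMC, PSMD, PSME, PSMF or PSMG followed by digits only. This gave 48 genes of the 58735 entries in each library, and 46 of them were among the 17780 genes with enough counts to be tested. PSMA8, a core subunit of the testis, and PSMB11, of the thymus, were not tested, and they held at most 1 count in any group. SEM1 and ADRM1, which are subunits under other names, are not members and are described with the pathway.

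The proteasome degrades proteins that carry ubiquitin chains. Its core is a barrel of alpha and beta rings whose catalytic sites lie inside the beta rings, and the regulatory particle on its ends binds ubiquitin, removes it, and unfolds and feeds in the substrate. In cells exposed to interferon the catalytic subunits PSMB6, PSMB7 and PSMB5 are replaced by PSMB9, PSMB10 and PSMB8 in newly made particles, which are then called immunoproteasomes. When proteasomes are inhibited, the transcription factor NFE2L1 raises most subunit genes together.

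The cells were MDA-MB-468, an established triple-negative breast cancer line labelled as wild type, with no gene edited in any group. Polyadenylated RNA was sequenced from 12 libraries in 4 groups of 3, lettered A, B and C. One group received DMSO, the vehicle. A pair of groups received 10 nM docetaxel, a taxane that stabilises microtubules, for 8 h or 24 h in 10 cm plates. The last, called the combination here, received 5 µM tazemetostat, an inhibitor of the histone methyltransferase EZH2, and 5 µM ipatasertib, an inhibitor of the kinase AKT. For this regimen the protocol describes 5 days in tazemetostat or DMSO, then 24 h of treatment in 6 cm plates with 2% FBS. Nothing in the labels gives the serum of the docetaxel cultures, or the hours, plate and serum behind the DMSO libraries. No group received only 1 of the combined drugs. Treatment and culture conditions therefore cannot be told apart. The letters are not said to stand for separate cultures, so each p-value rests on a spread among libraries that may be technical.

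Libraries held 29820617 to 45807059 counts. The markers fixed as present in this line were found. EGFR stood between 2520 and 5300 CPM (normalised read counts, using edgeR's TMM factors). KRT5, KRT14, KRT17, KRT8 and EPCAM were all at 165 CPM or more in every library. ESR1 was between 0.745 and 2.13 CPM and PGR at most 0.0357. Of the markers of other cell types, PTPRC, CD3E and CD68 never exceeded 0.227 CPM. Others were not absent: CSF1R, from the same immune list, ran from 2.1 to 15.6 CPM. The fibroblast marker COL1A1 ran from 12.2 to 22.3 CPM and the endothelial marker KDR from 11.1 to 37.1 CPM. Genes of the mitochondrial genome took 4.001 to 4.48% of the counts in DMSO, 8.20 to 8.997% after 8 h of docetaxel, 5.002 to 7.53% after 24 h and 7.71 to 9.30% in the combination.

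In DMSO the members differed widely in level. Per kilobase of exon, the highest was PSMA7 (chromosome 20, 62136735 to 62143440, minus strand, GRCh38), an alpha ring subunit, at 198 ± 2.56 CPM per kb (SD, n = 3). PSMC3, an ATPase of the regulatory particle, followed at 137 ± 3.43 CPM per kb, then PSMB4 at 112 ± 1.39 and the lid subunit PSMD8 at 110.0 ± 1.90. The last pair did not differ beyond their spread. The lowest was PSMA6 (chromosome 14, 35278633 to 35317493, plus strand) at 0.608 ± 0.0478 CPM per kb, below PSMA2 at 1.002 and PSMD9 at 1.01 CPM per kb. These 3, with PSMA1 and PSMB10, were the 5 tested members with over 10% of their exon bases inside another annotated gene on the same strand. The shares were 14.1% for PSMA6, 14.6% for PSMA2, 19.9% for PSMD9, 24.7% for PSMA1 and 34.8% for PSMB10, and the part of this overlap in their low counts was not tested. The counting rule for reads in shared exons is not known, so the levels of these 5 are uncertain. The order also depended on the length used. With the length of the principal transcript PSMA7 stayed highest at 348 CPM per kb, then came PSMB4 (250), PSMD8 (220) and PSMC3 (198). PSMD9 was then lowest at 3.18 CPM per kb, below PSMA2 at 3.60 and PSMA6 at 3.85.

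**Figure D1:**
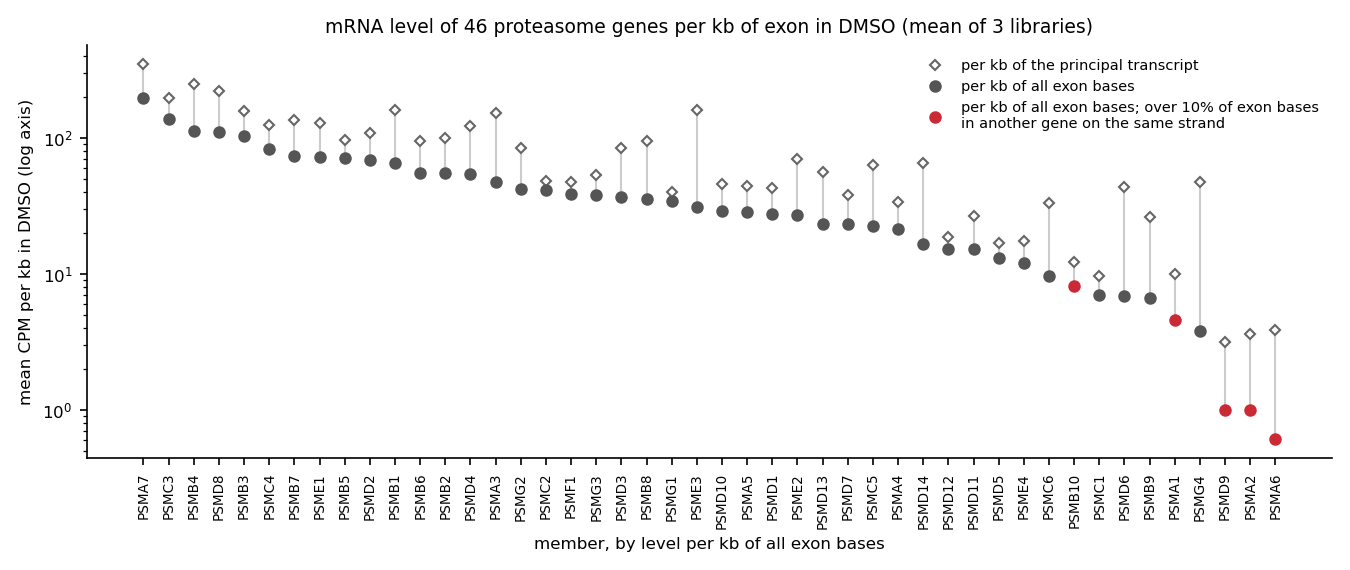
Mean level of the 46 tested members in the 3 DMSO libraries, in CPM per kilobase on a log axis, ordered from highest (PSMA7, 198 CPM per kb) to lowest (PSMA6, 0.608). Filled points use all exon bases, with members sharing over 10% of them with another gene on the same strand in red, and open diamonds use the principal transcript. The 5 red members lie at the low end.

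Promoters were read from a RefSeq table (GRCh38.p14), which held 42 of the 48 members in 51 windows of 250 bases before to 50 after a start. They are shown because they carry the short motifs of the factors known to drive either the whole gene set or its interferon-inducible members. The core of the antioxidant response element, TGACNNNGC, to which NFE2L1 and NFE2L2 bind, was found on either strand in 15 of the 51 windows (29.4%), against 13.3% of 35116 windows of all genes. The interferon-stimulated response element core, GAAANNGAA, was in 8 windows (15.7% against 8.11%), and the gamma-activated site TTCNNNGAA was in 8 (15.7% against 7.66%). The heat shock element unit GAANNTTC was in none, against 6.77% of all windows. A match describes letters in the window and is neither a shown binding site nor a cause. Besides the 5 members printed below, TGACNNNGC was matched in PSMB9, PSMC4, PSMD1, PSMD5, PSMD9, PSME1, PSME2, PSME4, PSMG1 and PSMG2. Of these, PSME4 fell at 8 h of docetaxel, PSMB9, PSMD5 and PSME1 did not pass the test given below, and the rest rose. Below, matches to TGACNNNGC in 5 members of the core, the ATPase ring and the lid are in capitals, each read 5′ to 3′ on the gene's strand. They lie at chr15:78540650-78540679 (plus), chr17:38752627-38752656 (plus), chr17:63827654-63827683 (plus), chr17:39980760-39980789 (plus) and chr17:67366723-67366752 (minus).
PSMA4: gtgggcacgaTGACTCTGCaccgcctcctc
PSMB3: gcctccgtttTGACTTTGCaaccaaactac
PSMC5: gaccggatctGCTGTGTCAgcgccgccctc
PSMD3: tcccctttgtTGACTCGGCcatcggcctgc
PSMD12: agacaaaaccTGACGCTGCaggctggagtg

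The interferon-type core GAAANNGAA is shown for the members of the immunoproteasome and its activator that held it, with the match in capitals, again 5′ to 3′ on the gene's strand. These windows lie at chr6:32844031-32844060 (minus), chr16:67936852-67936881 (minus), chr14:24136190-24136219 (plus) and chr14:24146619-24146648 (minus). In PSMB8 and PSME1 the match is on the opposite strand. All 4 begin within 30 bases of the start. No match to these letters was found in the PSMB9 window. The same core was also matched in PSMA4, PSMB4, PSMC2 and PSMG4, which lie outside the immunoproteasome and its activator and are not printed.
PSMB8: atctgtggctTTCGCTTTCacttcctcctc
PSMB10: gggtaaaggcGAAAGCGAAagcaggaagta
PSME1: ccctaccgctTTCGCTTTCccttcgcggtg
PSME2: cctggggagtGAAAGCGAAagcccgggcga

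After 8 h of docetaxel most proteasome genes stood higher than in DMSO. Of the 46 tested members 38 rose, 1 fell and 7 did not pass the test (edgeR's quasi-likelihood test, Benjamini-Hochberg adjusted p under 0.05 over all genes), while 22.5% of all tested genes were called higher and 24.8% lower. The members' median log2 fold change was 0.42, beside -0.02 over all tested genes. The rise took in 13 of the 14 constitutive core subunits (median 0.51), all 17 subunits of the regulatory particle (median 0.45) and 6 of 7 assembly factors (median 0.36). In these bulk libraries a change in RNA per cell and a change in the mix of cells cannot be told apart. The result moved with the scaling. When scaled by library totals alone, the median of all genes moved by -0.16, and 33 members rose with a median of 0.27, while 12.9% of all genes were called higher and 38.2% lower. The calls of PSMD1, PSMD2, PSMD9, PSMD10 and PSMF1 were then lost. The mitochondrial share of these libraries was above that of DMSO, and its part in the result was not tested. In the combination, where this share was 7.71 to 9.30%, library totals moved the median of all genes by -0.04. With totals that leave out the mitochondrial genes the 8 h shift of all genes was -0.09. Then 34 members rose, with a median of 0.33, beside 16.7% of all genes higher and 32% lower.

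The 3 largest single rises at 8 h were in members of the alpha ring, the outer ring whose tails gate the entrance to the core. As a list, the alpha ring had a median of 0.505, below the 0.605 of the constitutive catalytic subunits. PSMA3 (chromosome 14, 58244831 to 58272012) stood at 152, 145 and 148 CPM in DMSO libraries A, B and C, 268, 232 and 251 at 8 h, 192, 205 and 209.6 at 24 h, with 127, 113 and 109 in the combination. The 4 groups did not overlap, and the order from high to low was 8 h, 24 h, DMSO and combination. Its log2 fold change was 0.75 ± 0.06 (SE) at 8 h (edgeR adjusted p = 1.04e-09). PSMA2 (chromosome 7, 42916857 to 42932223) was at 5.09, 5.52 and 5.44 CPM in DMSO and 9.27, 9.27 and 9.13 at 8 h. In the 24 h libraries it stood at 7.10, 6.501 and 7.11, in those of the combination at 6.84, 5.51 and 5.76. All docetaxel libraries lay above all DMSO libraries, and the combination overlapped DMSO. The rise of PSMA2 at 8 h was 1.73-fold, or 0.79 ± 0.10 (edgeR adjusted p = 1.09e-06). PSMA1 (chromosome 11, 14504874 to 14643635) was at 16.1, 16.1 and 13.2 CPM in DMSO, 30.2, 22.2 and 25.5 at 8 h, 22.5, 22.3 and 23.3 at 24 h, with 15.5, 13.6 and 13.8 in the combination. It was higher in every docetaxel library than in any DMSO library, by 0.78 ± 0.09 at 8 h and 0.58 ± 0.09 at 24 h, and the 2 times overlapped. PSMA1 and PSMA2 are among the members with shared exons noted above, PSMA3 is not. PSMA6 was the only alpha subunit not to pass at 8 h, at 0.25 ± 0.13.

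**Figure D2:**
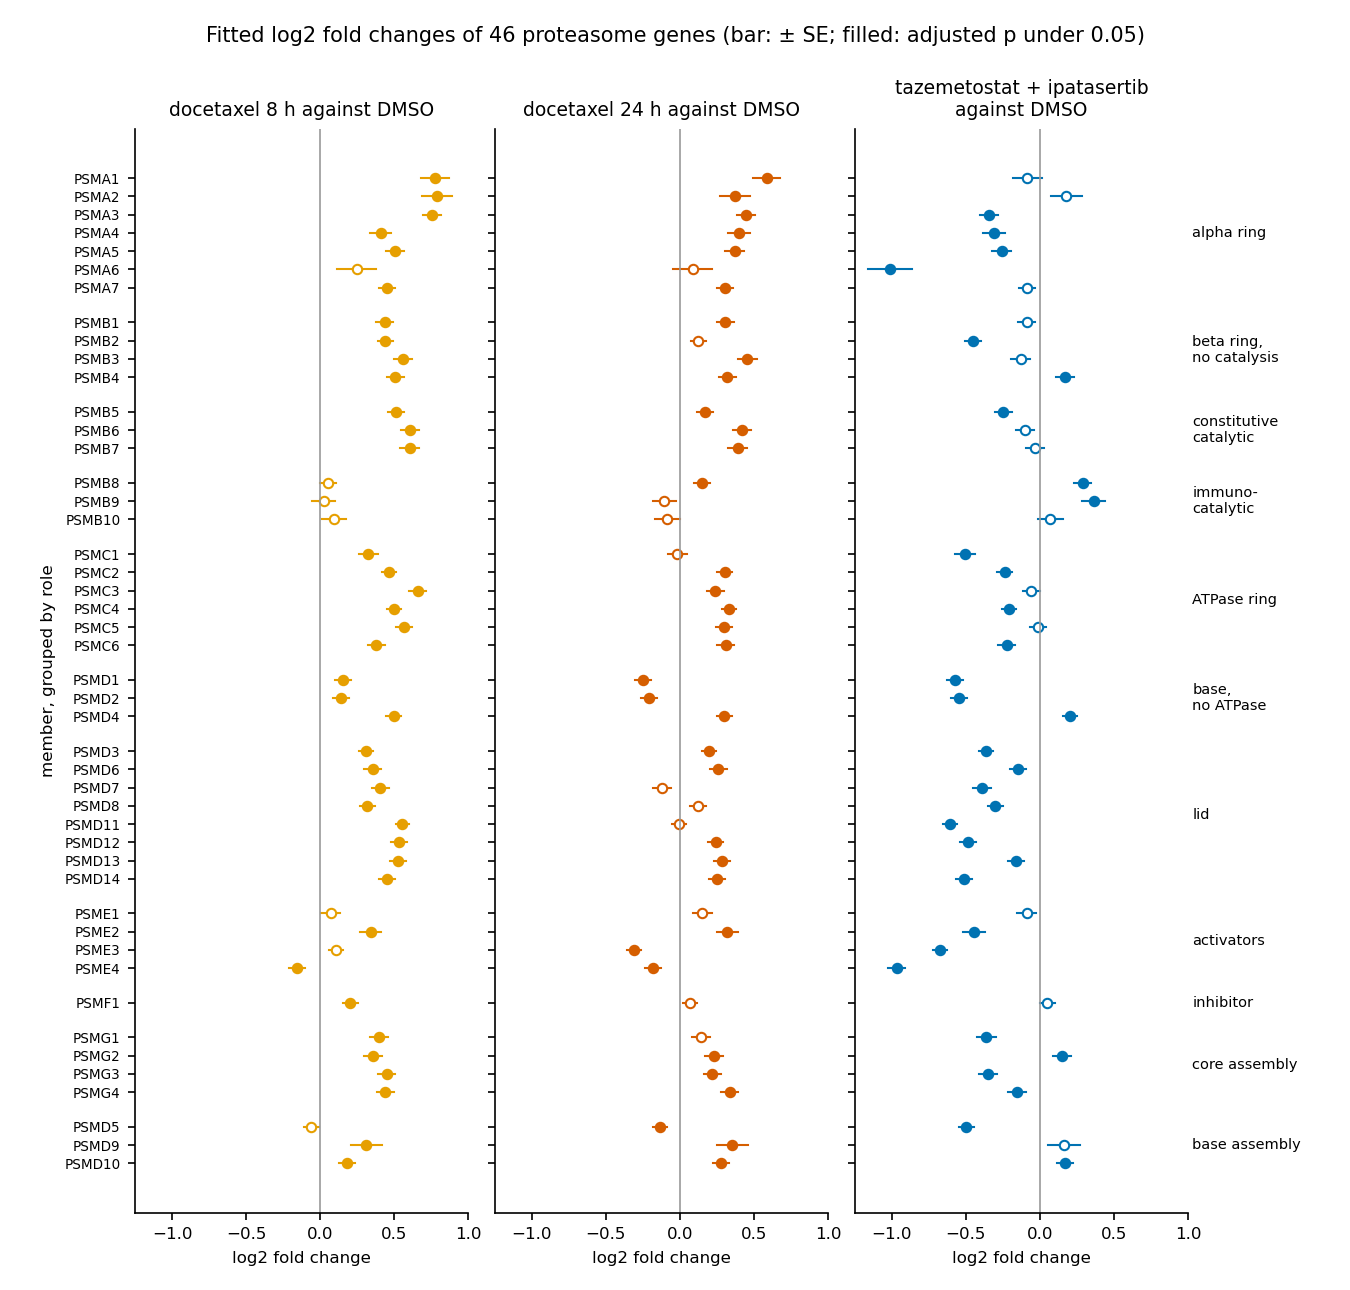
Fitted log2 fold changes (x axis) of the 46 tested members, grouped by role (y axis), with bars of ± SE and filled points where the adjusted p was under 0.05. At 8 h of docetaxel 38 points were called to the right of 0, at 24 h 30, and in the combination 27 were called to the left.

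Among the other core subunits, PSMB3, a beta subunit without catalysis, stood at 124, 115 and 124 CPM in DMSO, 198, 164 and 175 at 8 h, 159.5, 174 and 165 at 24 h, with 118, 103 and 112 in the combination. Docetaxel libraries lay above all others, the 2 times overlapped, and the combination overlapped DMSO. Its log2 fold changes were 0.56 ± 0.06 at 8 h and 0.46 ± 0.06 at 24 h. PSMA7, the highest member, was at 351, 342 and 346 CPM in DMSO, 509, 443 and 471 at 8 h, 427, 439.9 and 418 at 24 h, with 347, 307 and 324 in the combination. Both docetaxel groups lay above DMSO and the combination overlapped it, with log2 fold changes of 0.45 ± 0.05, 0.31 ± 0.05 and -0.09 ± 0.05. All 4 non-catalytic beta subunits rose at 8 h, by 0.44 to 0.56.

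In the regulatory particle all 6 ATPases, which unfold the substrate, rose at 8 h, by 0.32 for PSMC1 to 0.66 for PSMC3. All 8 lid subunits rose as well, by 0.31 for PSMD3 to 0.56 for PSMD11, and PSMD14, the lid's deubiquitinase, by 0.45. PSMC1 shares 75.8% of its exon bases with NRDE2 on the opposite strand, and the strand setting of the counts is not given, so its counts are uncertain. The same limit holds for PSMD7 (30.7%, AC009120.2), PSMC5 (19.5%, FTSJ3) and PSMD1 (10.8%, HTR2B). In the DMSO libraries AC009120.2 held 187 counts, FTSJ3 8277 and HTR2B 3. The base subunits that are no ATPases were uneven: the ubiquitin receptor PSMD4 rose by 0.50 ± 0.05, and the scaffold subunits PSMD1 and PSMD2 by 0.16 ± 0.05 and 0.14 ± 0.05. The calls of PSMD1 and PSMD2 were the weakest of the regulatory particle. The call of PSMD1 was lost without DMSO C (0.15) or 8 h library B (0.14). That of PSMD2 was lost without DMSO A (0.15) or without 8 h library A, B or C (0.14 each), and with no filter on counts (0.13). With library totals, which shift all genes, PSMD2 was at -0.01, a distance from 0 under its SE.

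The assembly factors of the core, PSMG1 to PSMG4, all rose at 8 h, by 0.36 to 0.45. On the opposite strand PSMG2 shares 13.9% of its exon bases with CEP76, and PSMG4 13.3% with SLC22A23. Without the strand setting their counts are also uncertain. Of the chaperones of the base, PSMD9 rose by 0.31 and PSMD10 by 0.18, and PSMD5 was at -0.06 and did not pass. The call of PSMD9 was lost without 8 h library B (0.25). PSMF1 (chromosome 20, 1113263 to 1189415), an inhibitor of the core, was at 199, 202 and 209 CPM in DMSO, 244.5, 222 and 236 at 8 h, 211, 209.7 and 218 at 24 h, with 221.5, 204 and 206 in the combination. The 8 h libraries lay above all the rest, and the other groups lay close together. PSMF1 rose by 0.21 ± 0.05 at 8 h (edgeR adjusted p = 0.00138), and its values of 0.07 ± 0.05 at 24 h and 0.05 ± 0.05 in the combination did not pass.

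The constitutive catalytic subunits rose at 8 h and the immunoproteasome ones did not pass the test. PSMB5 (chromosome 14, 23016543 to 23035230), which cuts after bulky hydrophobic residues, was at 129, 119 and 127 CPM in DMSO, 190.4, 167.5 and 178 at 8 h, 137.5, 140.5 and 144 at 24 h, with 113, 101 and 102.5 in the combination. The 4 groups did not overlap. The log2 fold changes of PSMB5 were 0.51 ± 0.05 at 8 h, 0.17 ± 0.05 at 24 h and -0.25 ± 0.06 in the combination (edgeR adjusted p = 7.66e-08, 0.0151 and 0.000507). The call at 24 h was lost without DMSO B (0.14) or without 24 h library C (0.15). PSMB6 (chromosome 17, 4796144 to 4798503), with caspase-like activity, was at 81.7, 78.0 and 81.7 CPM in DMSO, 133, 114 and 120.2 at 8 h, 108, 105 and 110.1 at 24 h, with 82.0, 70.4 and 73.0 in the combination. PSMB7 (chromosome 9, 124353466 to 124415444), with trypsin-like activity, was at 136, 129.8 and 131 CPM in DMSO, 213, 188 and 202 at 8 h, 159.8, 175 and 185 at 24 h, with 143, 120.0 and 125 in the combination. In both genes the 3 groups with docetaxel or DMSO stood apart, 8 h highest and DMSO lowest, and the combination overlapped DMSO. PSMB6 changed by 0.61 ± 0.06 at 8 h and 0.42 ± 0.06 at 24 h, and PSMB7 by 0.60 ± 0.06 and 0.39 ± 0.06. Their values in the combination, -0.10 ± 0.06 and -0.03 ± 0.06, did not pass.

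PSMB8 (chromosome 6, 32840717 to 32844703), the inducible counterpart of PSMB5, was at 107, 109 and 105 CPM in DMSO, 119.6, 105 and 108 at 8 h, 110.0, 120.0 and 126 at 24 h, with 135, 126.5 and 130.5 in the combination. The 8 h libraries overlapped DMSO, and those of 24 h and the combination lay above it. PSMB8 rose by 0.29 ± 0.06 in the combination (edgeR adjusted p = 0.000101) and by 0.15 ± 0.06 at 24 h (edgeR adjusted p = 0.0337). The 24 h call was lost without DMSO A (0.16) or C (0.15), without 24 h library B (0.14) or C (0.10), with library totals (0.13), and with no filter on counts (0.14). PSMB9 (chromosome 6, 32844136 to 32859585), the counterpart of PSMB6, was at 21.5, 20.6 and 19.2 CPM in DMSO, 22.5, 18.8 and 21.1 at 8 h, 18.1, 19.0 and 19.8 at 24 h, with 29.01, 25.0 and 24.8 in the combination. Only the combination stood apart from DMSO, with a rise of 1.29-fold, 0.36 ± 0.08 (edgeR adjusted p = 0.000289). PSMB10 (chromosome 16, 67934502 to 67937087), the counterpart of PSMB7, was at 15.1, 15.03 and 14.9 CPM in DMSO, 17.6, 14.4 and 16.1 at 8 h, 14.6, 14.3 and 13.6 at 24 h, with 17.6, 15.2 and 14.5 in the combination. The 24 h libraries lay just below DMSO and the other groups overlapped it, and none of the log2 fold changes of 0.09, -0.09 and 0.07 (each ± 0.08) passed.

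At 8 h the 3 immunoproteasome subunits had log2 fold changes of 0.02 to 0.09, and 0 of 3 passed edgeR's test, also at an unadjusted p under 0.05 and with DESeq2. PSMB8 and PSMB9 are neighbours on opposite strands, and 139 exon bases of each lie in the other. PSMB8-AS1, which lies opposite PSMB8 and on the same strand as PSMB9, went from 289 counts in the DMSO libraries to 510 in the combination. Reads that PSMB8 shares with either neighbour cannot be told apart without the strand setting. PSMB9 shares 174 exon bases with PSMB8-AS1 on its own strand, where strand does not separate them.

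**Figure D3:**
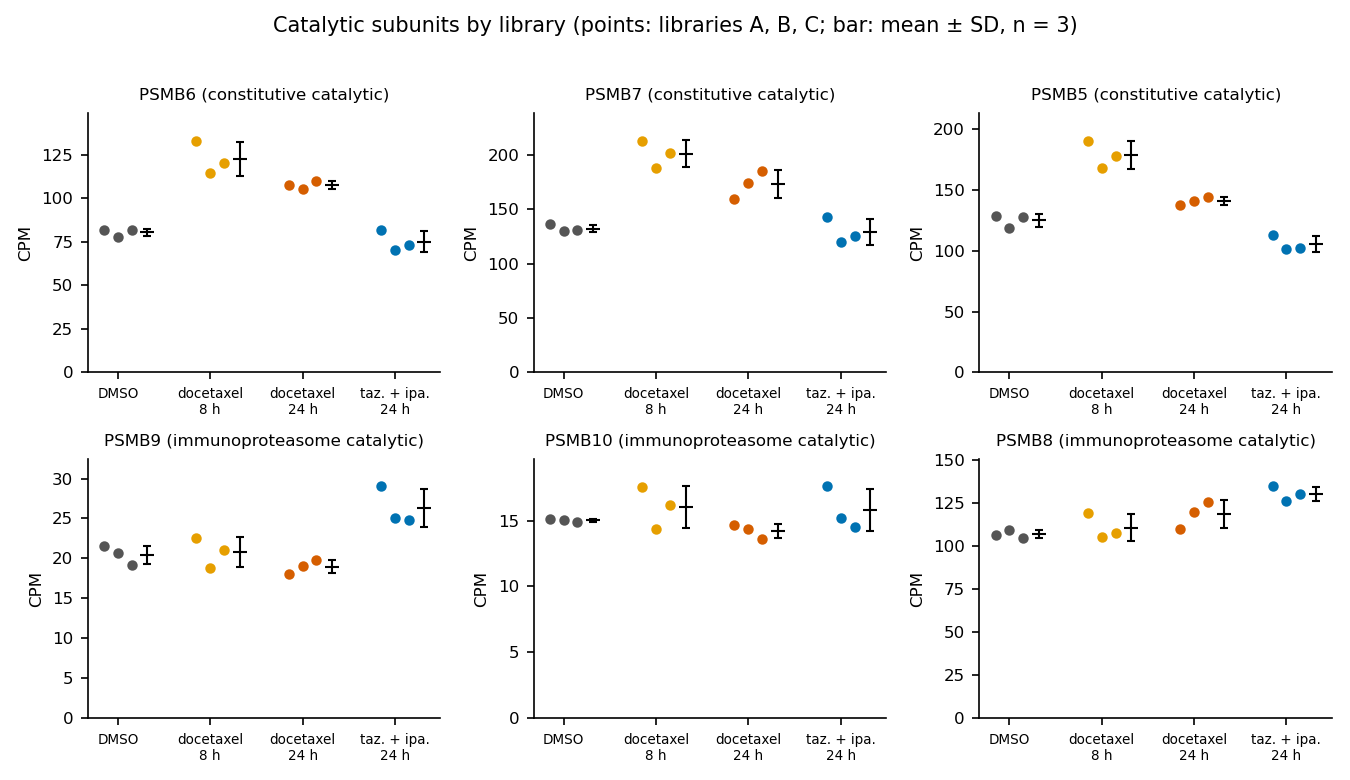
Level in CPM (y axis) of the 3 constitutive (upper row) and the 3 immunoproteasome (lower row) catalytic subunits in each library by group (x axis), with the mean ± SD of 3 libraries. The constitutive subunits are highest at 8 h of docetaxel, and PSMB8 and PSMB9 are highest in the combination.

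To compare the subunits within a library, the share of PSMB8, PSMB9 and PSMB10 in the summed CPM per kilobase of all 6 catalytic subunits was taken. This ratio does not depend on the scaling between libraries. It was 19.8, 20.9 and 19.6% in DMSO, 15.1, 14.9 and 14.8% at 8 h, 17.3, 17.8 and 17.6% at 24 h, with 24.2, 25.3 and 25.0% in the combination. No 2 groups overlapped, and the order was 8 h, 24 h, DMSO and combination from low to high. The means were 20.1% ± 0.697 (SD, n = 3) in DMSO, 14.9% ± 0.139 at 8 h, 17.6% ± 0.251 at 24 h and 24.8% ± 0.568 in the combination. The differences from DMSO were -5.19, -2.58 and 4.70 percentage points. The difference between 24 h and 8 h was 2.61 points, and that between the combination and 24 h was 7.28. For each of the 5 comparisons the exact two-sided permutation test gave p = 0.1, the smallest that the 20 arrangements of 3 against 3 allow, and 0.1 after adjustment over the 5. The differences kept their sign with CPM not divided by length and with the length of the principal transcript. The level of the share depended on that choice. With CPM not divided by length it was 29.7% in DMSO and 35.8% in the combination, and with the principal transcript 29.1% and 35.1%.

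Of the 4 activators, which bind the core in place of the regulatory particle, 1 rose, 1 fell and 2 did not pass at 8 h of docetaxel, close to the 22.5% and 24.8% of all genes. At 24 h 1 rose and 2 fell, beside 20.2% of all genes called higher and 22.7% lower. In the combination 3 fell, beside 31.4% of all genes called lower. A list of 4 genes is too short to set these counts apart from such shares. PSME1 and PSME2 form the interferon-inducible activator. PSME1 (chromosome 14, 24136158 to 24138967) was at 130.4, 123 and 132 CPM in DMSO, 148, 122 and 135 at 8 h, 138, 142 and 148 at 24 h, with 131, 111 and 120.3 in the combination. The 24 h libraries lay above DMSO, the other groups overlapped it, and no comparison with DMSO passed, with values of 0.07 ± 0.07, 0.15 ± 0.06 and -0.09 ± 0.07. PSME2 (chromosome 14, 24143362 to 24147570), its partner, was at 100.1, 93.2 and 99.1 CPM in DMSO, 136, 113 and 122 at 8 h, 115.5, 117 and 132 at 24 h, with 79.98, 64.4 and 70.3 in the combination. All docetaxel libraries lay above DMSO and all combination libraries below it. PSME2 rose by 0.34 ± 0.07 at 8 h and 0.32 ± 0.07 at 24 h, and fell by 0.45 ± 0.07 in the combination (edgeR adjusted p = 0.00044, 0.001 and 1.44e-05).

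PSME3 (chromosome 17, 42824385 to 42843758), the nuclear activator, was at 158.5, 169.8 and 156 CPM in DMSO, 174, 171 and 177 at 8 h, 135, 129.9 and 125 at 24 h, with 102, 101 and 100.4 in the combination. No 2 groups overlapped. PSME3 was at 0.11 ± 0.05 at 8 h, which did not pass (edgeR adjusted p = 0.0651), fell by 0.31 ± 0.05 at 24 h and by 0.67 ± 0.05 in the combination. PSME4 (chromosome 2, 53864067 to 53970840), the large single-chain activator, was at 122, 125 and 125 CPM in DMSO, 107, 113 and 113 at 8 h, 112, 110.7 and 104 at 24 h, with 62.8, 68.7 and 58.3 in the combination. Both docetaxel groups lay below DMSO and overlapped each other, and the combination lay far below all of them. It was the only member to fall at 8 h, by 0.16 ± 0.05 (edgeR adjusted p = 0.02). That call was lost without DMSO A (-0.15), B (-0.13) or C (-0.13) or 8 h library A (-0.13). At 24 h PSME4 fell by 0.19 ± 0.05, a call lost without 24 h library C (-0.15), and in the combination by 0.97 ± 0.06 (edgeR adjusted p = 7.48e-13), to 0.511 of the DMSO level.

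**Figure D4:**
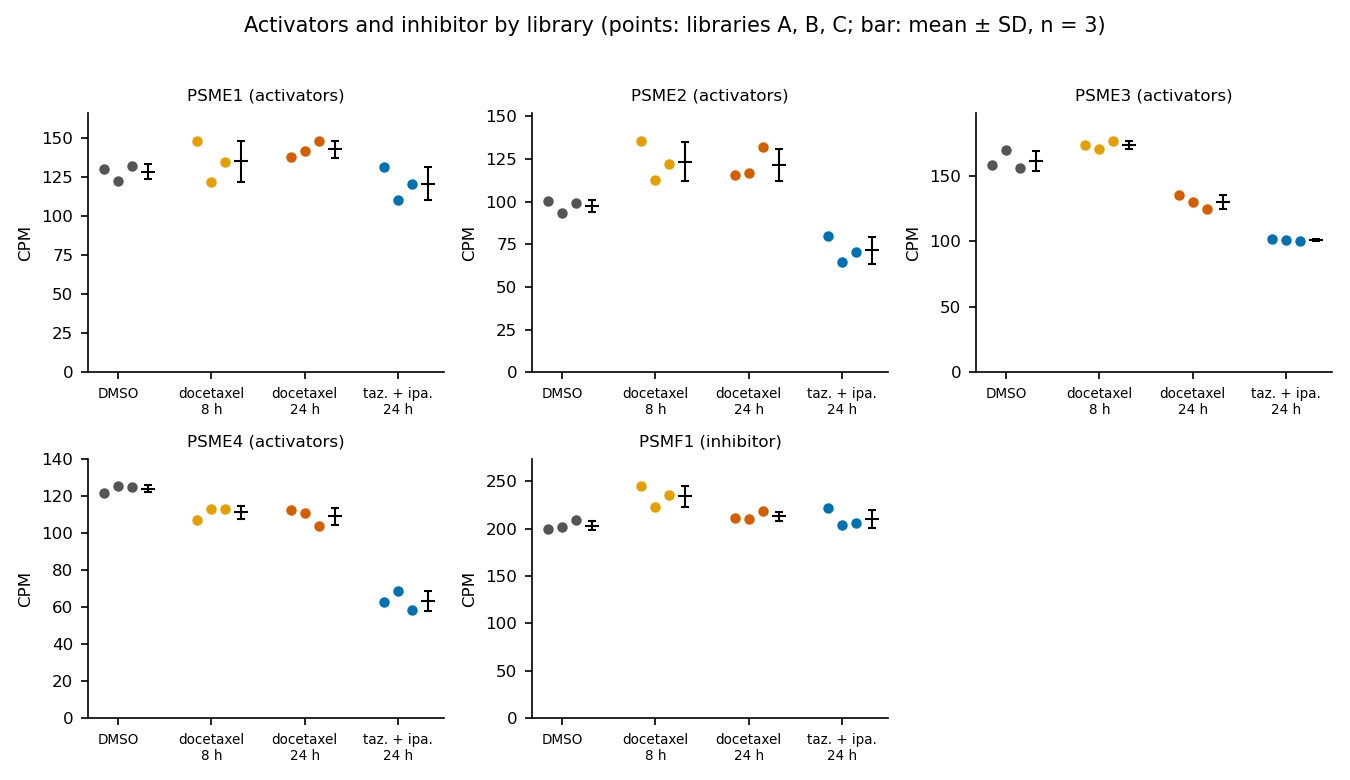
Level in CPM (y axis) of the activators PSME1 to PSME4 and the inhibitor PSMF1 in each library by group (x axis), with the mean ± SD of 3 libraries. PSME4 drops from 122 to 125 CPM in DMSO to 58.3 to 68.7 in the combination, and PSME2 is above DMSO in docetaxel and below it in the combination.

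After 24 h of docetaxel 30 of the 46 members were higher than in DMSO, 5 were lower and 11 did not pass, beside 20.2% of all genes called higher and 22.7% lower. The median log2 fold change was 0.24, and 0.01 over all genes. The core kept 12 of 14 members called higher (median 0.37), and the regulatory particle had 11 higher and 2 lower (median 0.24). The largest rises were those of PSMA1, PSMB3 and PSMA3, the last by 0.45 ± 0.06. The falls were those of PSME3, PSMD1, PSMD2, PSME4 and the base chaperone PSMD5 at -0.13. The call of PSMD5 was lost without DMSO A (-0.10), B (-0.14) or C (-0.13) and without 24 h library A (-0.11) or B (-0.13), and with no filter on counts (-0.15).

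PSMD1 (chromosome 2, 231056864 to 231172827), a scaffold of the base, was at 144.5, 146 and 136 CPM in DMSO, 159.8, 160.5 and 154 at 8 h, 126, 119 and 113 at 24 h, with 101, 97.1 and 87.8 in the combination. PSMD2 (chromosome 3, 184298709 to 184309054), the other large scaffold, was at 365, 379.6 and 374 CPM in DMSO, 411, 413 and 409 at 8 h, 347, 315 and 305 at 24 h, with 271, 257 and 238.5 in the combination. For both genes the groups did not overlap and stood in the order 8 h, DMSO, 24 h and combination. PSMD1 fell by 0.25 ± 0.05 at 24 h and by 0.57 ± 0.06 in the combination (edgeR adjusted p = 0.000679 and 4.81e-09). PSMD2 fell by 0.21 ± 0.05 and by 0.55 ± 0.05 (edgeR adjusted p = 0.00279 and 7.32e-09).

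Compared directly, 26 of the 46 members were lower at 24 h than at 8 h of docetaxel and 20 did not pass, beside 18.3% of all genes called lower and 16.6% higher. No member was called higher by edgeR's test, 0 of 46, also 0 at an unadjusted p under 0.05 and 0 with DESeq2. The median was -0.18, beside 0.01 over all genes. Those lower were 8 of 14 core subunits, 14 of 17 of the regulatory particle, PSME3, PSMF1, PSMG1 and PSMG3. The steepest was PSMD11, a lid subunit printed here in full because its value was the largest, a choice made after values were seen. It was at 110.3, 113 and 106 CPM in DMSO, 168, 159 and 158 at 8 h, 112, 105 and 111 at 24 h, with 72.4, 72.5 and 71.7 in the combination. The 8 h libraries stood above all others and those of 24 h overlapped DMSO, with a difference of -0.56 ± 0.05 between the times (edgeR adjusted p = 2.61e-09). PSMD7, another lid subunit, was lower at 24 h by 0.53, PSMC3 by 0.42 and PSMA2 by 0.42. Both times share the DMSO libraries in their own comparisons, so each is given beside the other and not as a second observation.

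This difference between times depended on the scaling. With library totals the median of all genes moved by 0.13, and 13 members were lower and 3 higher (PSMB8, PSMD10 and PSME1), with a member median of -0.05. Under that scaling 9.31% of all genes were called lower and 30.3% higher. With totals without mitochondrial genes the counts were 16 and 3, beside 11.2% and 26.2% of all genes. The mitochondrial share was lower at 24 h than at 8 h in all libraries, and its part was not tested. The calls of 6 members were also lost on leaving out 1 of the docetaxel libraries. Without 8 h library A this held for PSMA7 (-0.10), PSMB4 (-0.13), PSMB6 (-0.12) and PSMF1 (-0.11), and without 8 h library C for PSMA7 (-0.15) and PSMF1 (-0.13). Without 24 h library A it held for PSMA7 (-0.15), PSMB4 (-0.16), PSMB7 (-0.16), PSMC2 (-0.13) and PSMF1 (-0.13). Without 24 h library B it held for PSMB6 (-0.17) and PSMF1 (-0.13), and without C for PSMA7 (-0.14). PSMA7 and PSMF1 also did not pass when only these groups were fitted.

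Most members were lower in the combination than in DMSO. Of 46, 27 were lower, 6 were higher and 13 did not pass, beside 31.4% of all genes called lower and 31.4% higher. The median log2 fold change was -0.22, and 0.01 over all genes. The regulatory particle had 14 of 17 members lower and 1 higher (median -0.30), with all 8 lid subunits lower, by 0.15 for PSMD6 to 0.61 for PSMD11. The core had 6 of 14 lower and 1 higher, PSMB4 at 0.17 (median -0.11). The assembly factors had 4 lower and 2 higher, PSMG2 at 0.15 and PSMD10 at 0.17. Without combination library A the member median was -0.27, 31 members were lower and 3 higher, and the calls of PSMB4 (0.10), PSMG2 (0.09) and PSMD10 (0.12) were lost. Library A had the highest summed member level of its group. PSMG2 was also lost without DMSO B (0.13) or C (0.15), with library totals (0.11) and with no filter on counts (0.11), as was PSMD10 with no filter (0.13). The call of PSMD6 was lost without DMSO A (-0.14), B (-0.15) or C (-0.14) or combination library B (-0.15) or C (-0.13). That of PSMD13 was lost without DMSO B (-0.15) or combination library B (-0.12). That of PSMG4 was lost without DMSO B (-0.14) or C (-0.13) or combination library A (-0.15) or B (-0.12). With totals without mitochondrial genes PSMD6 (-0.12) and PSMG4 (-0.12) did not pass.

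The largest fall was that of PSMA6, at 4.03, 3.62 and 4.23 CPM in DMSO, 4.53, 4.26 and 5.35 at 8 h, 4.18, 4.44 and 4.03 at 24 h, with 1.70, 1.88 and 2.32 in the combination. The combination libraries lay below all others, at 0.496 of the DMSO level, a log2 fold change of -1.01 ± 0.15 (edgeR adjusted p = 3.01e-06). The member has few counts and shared exons, as said above. PSME4 and PSME3 had the next largest falls. PSMD4 (chromosome 1, 151254703 to 151267479), the ubiquitin receptor of the base, was the only one of the 17 regulatory particle members to rise. It was at 162, 164 and 167 CPM in DMSO, 240.4, 221 and 233 at 8 h, 199, 201 and 207 at 24 h, with 199, 181 and 186.5 in the combination. All treated libraries lay above DMSO, those of the combination by 0.20 ± 0.05 (edgeR adjusted p = 0.000942). PSMB9, PSMB8 and PSMD4 were the 3 largest rises in the combination.

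Against 24 h of docetaxel, the combination had 37 of 46 members lower, 2 higher and 7 that did not pass, beside 31.7% of all genes called lower and 32.1% higher. The median was -0.42, and 0.00 over all genes. The 2 higher were PSMB9 at 0.47 ± 0.08 and PSMB8 at 0.14 ± 0.06, of which PSMB8 was lost without 24 h library A (0.08) or B (0.14) or combination library A (0.11) or C (0.14), and with no filter on counts (0.12). All 4 activators, all 6 ATPases and all 8 lid subunits were lower, PSME2 by 0.77 ± 0.07 and PSMA3 by 0.79 ± 0.06. PSMB4, lower by 0.15, lost its call without 24 h library B (-0.14) or C (-0.12) or combination library B (-0.10) or C (-0.14). The groups differed in drug, plate and possibly serum together.

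Summed over the 46 members, the level was 5942, 5904 and 5924 CPM in DMSO, 8213, 7445 and 7789 at 8 h, 6589.8, 6818 and 6879 at 24 h, with 5453, 4912 and 4975 in the combination. No 2 groups overlapped. As a share of all counts, without TMM factors, members took 0.614% ± 0.00720 (SD, n = 3) in DMSO, 0.728% ± 0.0230 at 8 h, 0.690% ± 0.0174 at 24 h and 0.517% ± 0.0192 in the combination. By that share the docetaxel times were closer, and 24 h library B (0.703%) was near 8 h library B (0.708%).

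**Figure D5:**
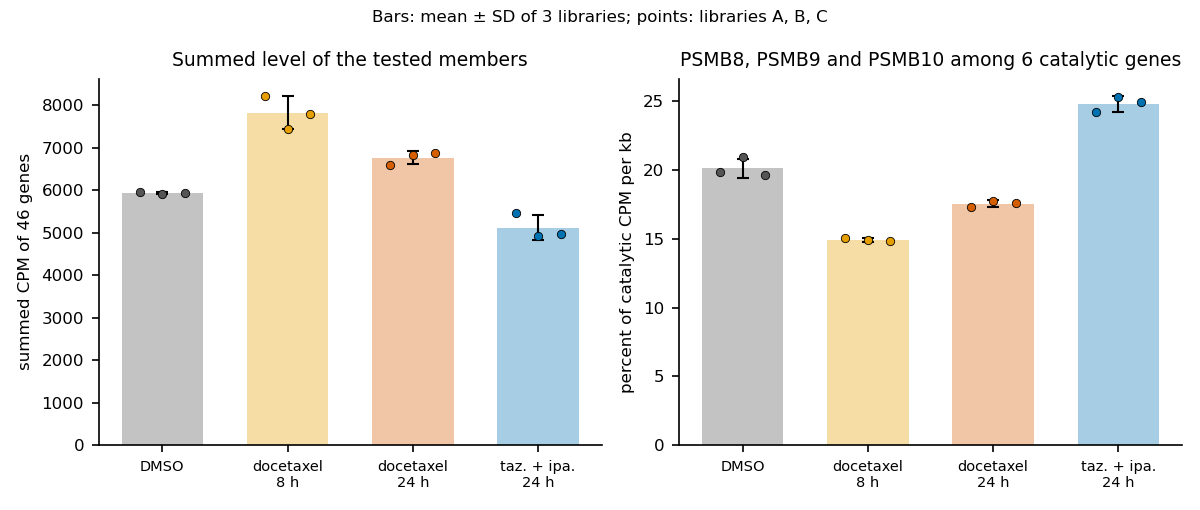
Left and right panels show, by group (x axis), the summed CPM of the 46 tested members and the percentage of immunoproteasome subunits in the CPM per kilobase of the 6 catalytic subunits. Bars are means with SD and points are the 3 libraries. The summed level is highest at 8 h (7445 to 8213 CPM) and the immunoproteasome share is lowest there (14.8 to 15.1%).

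Markers of other cell types also differed in the combination. The summed immune markers were at 2.66 to 2.89 CPM in DMSO and 15.3 to 15.9 in the combination, nearly all of it from CSF1R (15.4 CPM), while PTPRC, CD3E and CD68 stayed at or near 0. The 5 fibroblast markers summed to 22.2 to 24.6 CPM in DMSO and 27.1 to 28.1 in the combination, with LUM going from 0 to 4.17 CPM while COL1A1, most of the sum, was lower there than its mean of 21.6 CPM in DMSO. The 4 endothelial markers summed to 21.7 to 24.2 and 38.8 to 40.0 CPM, mostly KDR. The part of these genes in the members' values was not tested. With docetaxel the fibroblast sum was 12.9 to 19.9 CPM and the endothelial sum 11.8 to 17.7.

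A list of 39 other genes of the pathway, all tested, was read beside the members. At 8 h of docetaxel 21 were higher and 8 lower, at 24 h 13 and 11, and in the combination 12 and 18. These are 53.8% and 20.5% of the list for the first, 33.3% and 28.2% for the second and 30.8% and 46.2% for the last, to be read against the shares of all genes given with each comparison. The 30.8% higher in the combination is close to the 31.4% of all genes. Of the 4 further subunits and assembly genes, 4 were higher at 8 h, 3 at 24 h and 2 in the combination, where 1 was lower. SEM1, a small lid subunit, was at 0.62 at 8 h, 0.57 at 24 h and 0.47 in the combination, all called. ADRM1, the ubiquitin receptor beside PSMD4, was at 0.65, 0.36 and -0.05, the last not called. POMP, which helps the beta rings form, was at 0.60, 0.46 and -0.14, all called. Of the 9 shuttle and segregase genes, which bring substrates to the proteasome, 5 were higher and 1 lower at 8 h, 2 and 3 at 24 h, and 7 were lower in the combination, where all 9 values were below 0. VCP, the ATPase that extracts proteins from membranes and complexes, was at 0.38, -0.06 and -0.49, of which the value at 24 h was not called. UBQLN4, a shuttle, fell in all 3, by 0.39, 0.41 and 0.58.

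UBA1, the main activating enzyme of ubiquitin, fell in all 3 comparisons with DMSO, by 0.21 at 8 h, 0.36 at 24 h and 0.18 in the combination. USP14 and UCHL5, deubiquitinases bound to the regulatory particle, rose at 8 h by 0.19 and 0.25 and fell in the combination by 0.43 and 0.59. ZFAND5, a stimulator of the proteasome, was at 0.01 at 8 h, not called, and rose by 0.42 at 24 h.

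The mRNA of the factors known to act on these genes moved in different directions. NFE2L1, which raises subunit genes when proteasomes fail, fell by 0.17 at 8 h and 0.38 at 24 h and rose by 0.15 in the combination. DDI2, the protease that activates the NFE2L1 protein, fell in all 3, by 0.39, 0.35 and 0.73. NFE2L2 rose by 0.20 at 8 h, and its values of 0.03 at 24 h and -0.01 in the combination were not called. Of the inducers of the immunoproteasome genes, IRF1 rose by 0.20 at 8 h and 0.26 at 24 h and fell by 0.40 in the combination. NLRC5, the activator of class I antigen presentation genes, was at -0.02 and 0.00 with docetaxel, neither called, and rose by 0.43 in the combination. TAP1, beside PSMB9 in the genome, fell by 0.17 and 0.13 with docetaxel and was at -0.07 in the combination, not called. TAP2 rose by 0.46 and 0.17 with docetaxel and fell by 0.17 in the combination.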

How the data were processed

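Poly(A) RNA of 12 libraries was analysed from counts per gene symbol that the authors deposited, 1 table per library, and a deposited table of signal, which the authors had made by dividing these counts by a size factor per library. Per the submitters' processing notes, which name no roles, the tools were fastp, HISAT2 2.0.5 and DESeq2 and the genome build was hg38. How reads were counted, on which annotation and with what regard to strand is not given in the sources used here.

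Genes were kept with edgeR's filterByExpr (minimum count 10), scaled with TMM factors (0.917 to 1.05) and fitted over all 12 libraries with 1 mean per group (edgeR 4.0.16, R 4.3.3, 8 residual degrees of freedom, biological coefficient of variation 5.59%). The quasi-likelihood test was two-sided, with Benjamini-Hochberg adjusted p under 0.05 over 17780 genes as the threshold. The ± of a log2 fold change is an approximate SE, its size divided by the root of the F statistic. No molecular identifiers were reported, so PCR copies may be among the counts. Total counts per library set the precision and are given in the text.

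Coordinates, exon lengths and overlaps came from GENCODE 29 (GRCh38, the same build as hg38), promoters from RefSeq. Members follow their symbols, and the members and lists were chosen with earlier results of these data known. Values in every library are printed for the 3 largest rises and falls among called members in each comparison with DMSO, for PSMB5 to PSMB10, PSME1 to PSME4 and PSMF1, and for the highest and lowest member per kilobase in DMSO. Alternatives were library totals, DESeq2 1.42.0, no filter, the authors' size factors, a replicate block, only the 2 groups compared, leaving out each library, and CPM without length for the share. Library totals without mitochondrial genes, the principal transcript's length and leaving out members with shared exons were chosen after seeing the data. Some genes of the pathway and marker lists are not reported here by name.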

Additional observations from a re-analysis of the deposited data

Results flagged for a closer look

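For 26 members the level differed between 8 h and 24 h of docetaxel by the direct test of the difference (edgeR's quasi-likelihood test). The hours behind the DMSO libraries are not given, so time in culture and time in docetaxel cannot be told apart. All 26 differences are 24 h minus 8 h on the log2 scale and all are below 0. Of all tested genes 18.3% were called lower and 16.6% higher. In the core they were -0.42 for PSMA2, -0.31 for PSMA3, -0.15 for PSMA7, -0.32 for PSMB2, -0.19 for PSMB4, -0.34 for PSMB5, -0.19 for PSMB6 and -0.21 for PSMB7. In the ATPase ring they were -0.34 for PSMC1, -0.16 for PSMC2, -0.42 for PSMC3, -0.16 for PSMC4 and -0.27 for PSMC5. In the rest of the regulatory particle they were -0.41 for PSMD1, -0.35 for PSMD2, -0.20 for PSMD4, -0.53 for PSMD7, -0.20 for PSMD8, -0.56 for PSMD11, -0.29 for PSMD12, -0.24 for PSMD13 and -0.20 for PSMD14. The others were -0.42 for PSME3, -0.14 for PSMF1, -0.26 for PSMG1 and -0.23 for PSMG3. With library totals, 13 of these calls were lost, while 9.31% of all genes were called lower and 30.3% higher.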

How the results depend on the processing

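Scaling moved several docetaxel results. With library totals and with totals without mitochondrial genes, 2 members were lower at 8 h than in DMSO under either. Of all genes 38.2% and 32% were then called lower. The member median was 0.27 and 0.33. PSMD2 went from 0.14 to -0.014 with library totals. This move is of the size of the shift in all genes (-0.16) and leaves PSMD2 within its SE (0.05) of 0. Between 24 h and 8 h these scalings gave 3 and 3 members higher, 13 and 16 lower, and medians of -0.05 and -0.083. Of all genes 30.3% and 26.2% were then called higher, and 9.31% and 11.2% lower. The cause was not tested. With no filter 1 member was higher in the combination than at 24 h. Leaving out 1 library at a time gave 0 to 1 members lower at 8 h, 3 to 6 higher in the combination (median -0.27 to -0.19), 0 to 1 higher between 24 h and 8 h (median -0.23 to -0.14), and 1 to 2 higher between the combination and 24 h (median -0.47 to -0.40). Of the 230 tests of single members, none that was called in either fit changed sign with DESeq2 or the authors' size factors. Changes of sign between values called in neither fit were not counted. These settings gained 3 calls and 1 call and lost none. With library letters as a replicate block 38 members rose at 8 h, no single call was lost and that of PSME1 at 24 h was gained (0.15). Correlations of the deviations from group means ran from -0.13 to 0.14 for same-letter libraries and from -0.127 to 0.101 for libraries of different letters. With groups of 3 such values cannot settle whether the letters pair libraries, and the labels do not say. Groups of 3 limit the exact test, and few counts limit PSMA6 and PSMA2.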
